A study of Mus musculus with 109 samples.

Results

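Retinas injected with tumor necrosis factor (TNF) alone were compared with retinas injected with phosphate-buffered saline (PBS), 2 days after injection into the vitreous. The retinas were picked by a rule on the sample labels that used no measured value, though earlier results of these data were known. The comparison takes every wild-type (WT) retina of batch 1 and day 2 labelled TNF (8 retinas) or PBS (31 retinas). These are 39 of the 109 retinas in the series. All mice were of the C57BL/6J strain, 2 months old or older, and carried no engineered allele. The TNF retinas (4 female, 4 male; 3 left and 5 right eyes) had received 2 μL of TNF at 0.05 μg/μL, and the PBS retinas (15 female, 16 male) had received the vehicle. The comparison therefore holds the injection itself constant, and no uninjected retina was used. Each TNF retina came from a different mouse, and the other eye of each of these 8 mice received PBS and was sequenced too. The other 23 PBS retinas came from mice whose second eye received IL1A (7), IL1A+TNF (8) or was not among the sequenced samples (8). The series asks how IL1A and TNF lead to the loss of retinal ganglion cells (RGCs), the neurons that send visual signals to the brain. Its remaining retinas received IL1A alone or IL1A+TNF at day 2, TNF or PBS at day 14 or day 35, or belong to a second batch with Sarm1-/- mice.

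TNF is a cytokine released mainly by macrophages and by microglia, the resident macrophages of the retina and brain. It acts through TNFR1 (Tnfrsf1a), which most cells carry, and TNFR2 (Tnfrsf1b), which is found mainly on immune and endothelial cells. Both receptors recruit TRAF adaptors and can turn on the transcription factor NF-κB, whose targets include chemokines, adhesion molecules and its own inhibitors, and TNFR1 can also start apoptosis or necroptosis.

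Total counts were similar in all 39 retinas, from 30014757 to 43039063. Levels are given in CPM (counts relative to the total of the library), without scaling by the TMM method. In these data 2 features of single libraries touch the results and are given first. TNF retina 6 stood apart from the other TNF retinas. For H2-Aa, H2-Ab1, H2-Eb1, Cd74, Ctss, Cybb, Lyz2 and Ccr2, genes of antigen presentation and of myeloid cells, it was the lowest of all 39 retinas, and the PBS eye of the same mouse was the highest of the 31 PBS retinas. For H2-Aa, which encodes a chain of the MHC class II molecule, TNF retina 6 was at 0.338 CPM and its PBS fellow eye at 28.4 CPM, whereas the other 7 TNF retinas were at 8.61 CPM or more. The microglial and macrophage receptor Csf1r was at 14.6 CPM in TNF retina 6, below every PBS retina, and the monocyte receptor Ccr2 was at 0.0615 CPM, which is 2 counts. The labels of both eyes were kept as given. Whether the 2 eyes of this mouse were exchanged was not tested. In TNF retina 6, 30 of the 120 genes higher after TNF lay below every PBS retina, while its pigment epithelium score was lower than that of its fellow eye, as in the other 7 mice. How many of all genes tested lay below every PBS retina is not given here. Over all genes tested, TNF retina 6 correlated with the mean of the other TNF retinas at 0.979. For each of the other 7 this correlation was 0.987 or more. Results are also given without mouse 6, that is, without both TNF retina 6 and the PBS eye of its mouse, and each mouse carries the number of its TNF retina. Leaving out each TNF mouse in turn was planned, but mouse 6 was singled out after its values were seen. For genes where it went against the other mice, effects and FDRs without it are descriptive and no independent test. The second feature is lens and pigment epithelium RNA, which varied widely in both groups. The lens crystallin Cryaa ranged from 0 to 1696 CPM (median 5.84) in the TNF retinas and from 0 to 2521 CPM (median 0.122) in the PBS retinas, and 2 TNF retinas (5 and 7) and 6 PBS retinas had a lens score over 2. A list score is the mean log2 CPM of the members of a list minus the mean over the PBS retinas.

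At day 2, TNF retinas differed from PBS retinas in a small set of genes, nearly all of them higher. Of 19548 genes tested, 120 were higher and 8 were lower at a false discovery rate (FDR) under 0.05, which is 0.614% and 0.0409% of the genes tested. In this limma fit 1497 of the 19548 genes had an unadjusted p under 0.05, which is the background for the counts by list below. The higher genes included receptors, antigen presentation genes and signaling genes of macrophages, microglia and monocytes, and the lower genes included several of the pigment epithelium. The median log2 fold change was 0.91 over the 120 higher genes, from 0.17 to 2.55, and 55 of them were above 1. It was -1.35 over the 8 lower genes and -0.002 over all genes tested. Of the 128 genes, 123 were protein coding and 93 had an average of at least 1 CPM. In a whole-retina sample, a change in the number of cells of a type and a change of RNA per cell cannot be told apart. The mice, not the eyes, are the sampled animals. P-values of this fit measure the spread between retinas, with the 2 eyes of a mouse allowed a correlation of 0.0515.

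The number of genes past the threshold depended on single mice. Without mouse 6, 425 genes were higher and 29 were lower, or 2.16% and 0.148% of 19634 genes tested, and 127 of the 128 genes above were among them. Without mouse 7 it fell to 10 genes in all, and it was 23, 27, 33, 41 and 67 without mouse 5, 2, 1, 4 and 8, and 146 without mouse 3. With mouse as a fixed factor, so that only the 2 eyes of the same mouse are compared, no gene passed in limma (1418 of 17927 genes had an unadjusted p under 0.05), and likewise none with the PBS eyes of the 8 TNF mice as the only controls (1305). With the same factor and without mouse 6, an alternative chosen after seeing the data, 273 genes were higher and 35 lower. Leaving out the 8 retinas with a lens score over 2, also chosen after seeing the data, left 0 genes in limma (1231 at an unadjusted p under 0.05). The median log2 fold change of the 120 genes was then 0.60, and 132 genes passed once mouse 6 was left out as well. With edgeR and DESeq2 on the same retinas 242 and 268 genes passed. All 8 fits that each left out 1 TNF mouse called Ciita, Arl11, Cmklr1 and Cd22, and also Abcg3, Adgre4, Nlrp1b and the pseudogene Nlrp1c-ps, which average under 1 CPM and were picked for naming after their values were seen.

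**Figure D1:**
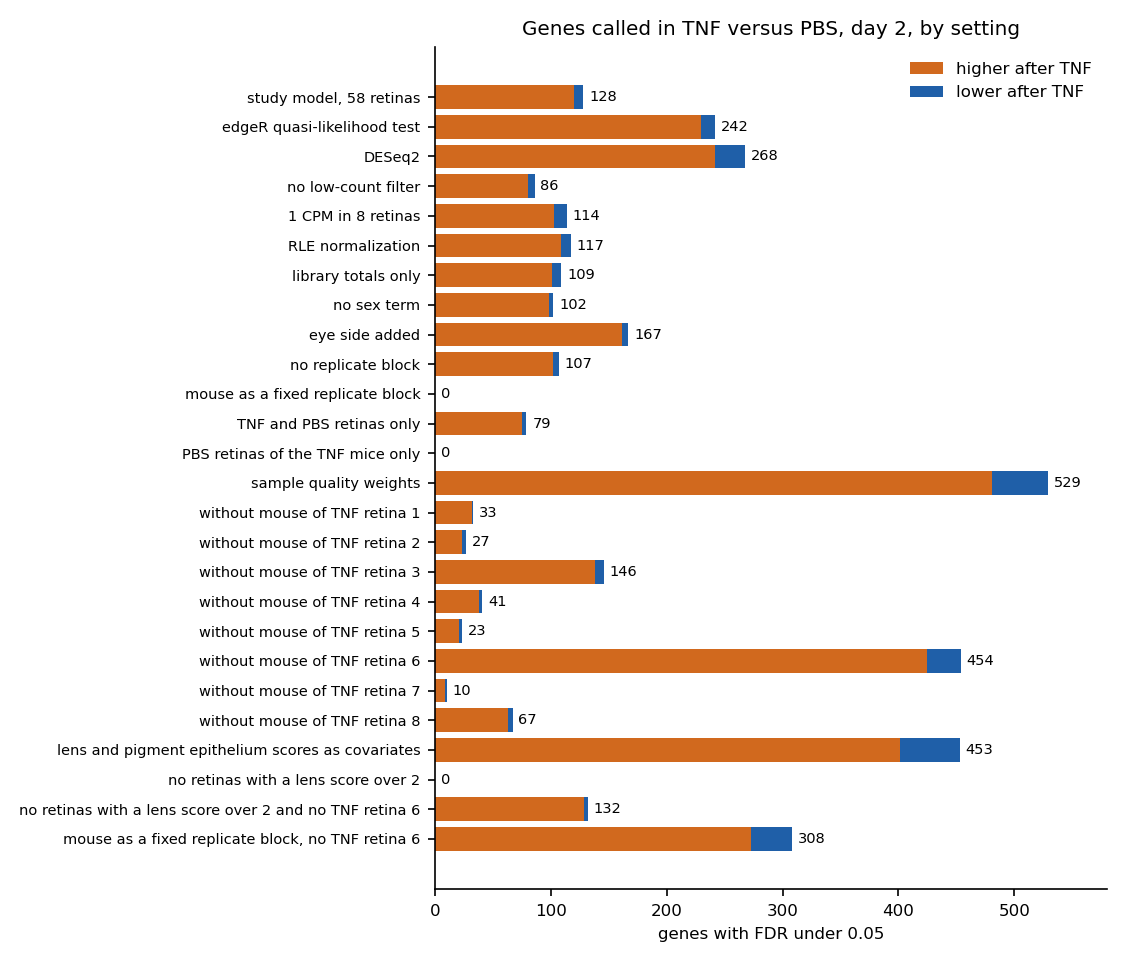
Number of genes with an FDR under 0.05 between TNF and PBS retinas at day 2 (horizontal axis, genes), under each analysis setting (vertical axis). Bars give genes higher and lower after TNF. The count is 128 in the fit described here, 454 without mouse 6, 10 without mouse 7, and 0 with mouse as a fixed factor or without the retinas of high lens score.

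The group with the most members past the threshold was MHC class II, the complex that displays peptides from engulfed proteins to CD4 T cells. Of 12 tested members, 6 were higher (median log2 fold change 1.07 over the 12, against -0.002 over all genes tested), and without mouse 6 all 12 were (median 1.44). Ciita (chr16:10480059-10528418 on GRCm38), which encodes the coactivator that turns on this gene family, had the smallest FDR of any gene that averaged at least 1 CPM. It ranged from 2.83 to 7.53 CPM (median 5.60) in the TNF retinas and from 1.76 to 4.25 CPM (median 2.97) in the PBS retinas. In 6 TNF retinas it lay above every PBS retina, the 2 exceptions being TNF retinas 3 and 6, and its log2 fold change was 0.82 ± 0.14 (FDR 0.00174). H2-Aa (chr17:34282744-34287823), the alpha chain of the I-A molecule, ranged from 0.338 to 52.3 CPM (median 29.8) in the TNF retinas and from 0.994 to 28.4 CPM (median 4.21) in the PBS retinas. The groups overlapped, since TNF retina 6 was the lowest of all and its fellow eye the highest PBS retina, and H2-Aa was higher by 1.89 ± 0.48 (FDR 0.0367) on the log2 scale, or 2.79 ± 0.30 (FDR 4.57e-09) without mouse 6. Its partner H2-Ab1 (chr17:34257689-34269419) was higher by 1.84 ± 0.37 (FDR 0.00593), or 2.48 ± 0.28 (FDR 6e-09) without mouse 6. H2-Eb1 (chr17:34305867-34316674), the beta chain of I-E, changed by 1.81 ± 0.46 (FDR 0.0392), or 2.67 ± 0.30 (FDR 6.52e-09). C57BL/6 mice make no I-E molecule at the cell surface because their alpha chain gene is defective, so that this RNA has no partner. H2-DMa, a chain of the molecule that loads peptides, ranged from 1.75 to 7.44 CPM (median 5.38) in the TNF retinas and from 2.07 to 4.85 CPM (median 3.49) in the PBS retinas, with a log2 fold change of 0.55 ± 0.14 (FDR 0.0328). For Ctss, the protease cathepsin S that trims the invariant chain, it was 0.87 ± 0.19 (FDR 0.0091). The invariant chain itself, Cd74, ranged from 0.861 to 88 CPM (median 54.8) in the TNF retinas and from 2.88 to 56.6 CPM (median 10.4) in the PBS retinas and did not pass (1.59 ± 0.44, FDR 0.0709) unless mouse 6 was left out (2.42 ± 0.29, FDR 3.44e-08). The smaller loading genes H2-DMb1 (0.57 ± 0.33, FDR 0.737) and Ifi30 (0.61 ± 0.18, FDR 0.136) did not pass either, and H2-Eb2 was too low to be tested.

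Promoters of MHC class II genes are known for a shared set of boxes upstream of the start site, the X box, bound by the RFX complex, and the Y box, bound by NF-Y, on which the CIITA protein assembles without touching DNA itself. The windows below are from MHC class II genes, the list with the most members past the threshold. Of the 4 genes shown, H2-Eb1 and H2-Aa passed over all retinas, and H2-DMb1 and H2-Ob did not. H2-Ab1, which passed, is not shown. They are 80 bases each, read 5′ to 3′ on the strand of the gene from RefSeq promoters on GRCm38.p6, with the Y box core GATTGG and the X box core ATGATGC in capitals.
H2-Eb1, chr17:34305747-34305826, plus strand: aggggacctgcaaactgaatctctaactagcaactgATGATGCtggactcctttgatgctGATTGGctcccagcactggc
H2-Aa, chr17:34287853-34287932, minus strand: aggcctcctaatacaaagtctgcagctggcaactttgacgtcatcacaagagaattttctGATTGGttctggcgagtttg
H2-DMb1, chr17:34153069-34153148, plus strand: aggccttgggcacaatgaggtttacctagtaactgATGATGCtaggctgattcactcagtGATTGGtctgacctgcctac
H2-Ob, chr17:34238787-34238866, plus strand: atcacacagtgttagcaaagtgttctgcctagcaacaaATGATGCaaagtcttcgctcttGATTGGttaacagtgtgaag
In H2-Eb1 the Y box core begins 60 bases before the start site and 17 bases separate it from the X box core. The spacing is 18 bases in H2-DMb1 and 15 in H2-Ob. The H2-Aa window holds the Y box core 49 bases before its start site and not the letters ATGATGC. Whether it holds an X box of other letters was not tested. Searched on both strands over 250 bases before to 50 bases after the start, GATTGG occurred in 16.1% of all 32851 RefSeq promoters, in 18.4% of the 114 promoters matched to 93 of the genes higher after TNF, and in 8 of 11 MHC class II promoters. ATGATGC occurred in 2.46%, 5.26% and 4 of 11, and both together in 0.341%, 0.877% and 4 of 11. The 11 MHC class II promoters were those of 10 genes of the list, H2-Eb2 among them, which was too low to be tested. H2-Ab1, Cd74 and Ciita had no promoter among the 11. The core GAGGAA, which the macrophage factor PU.1 binds, occurred in 28.3% of all promoters and 35.1% of those of the higher genes. The NF-κB motif GGGANNTTC occurred in 3.94% and 5.26%, and the interferon response motif GAAANNGAA in 8.56% and 12.3%. These are matches of letters, and binding was not measured.

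**Figure D2:**
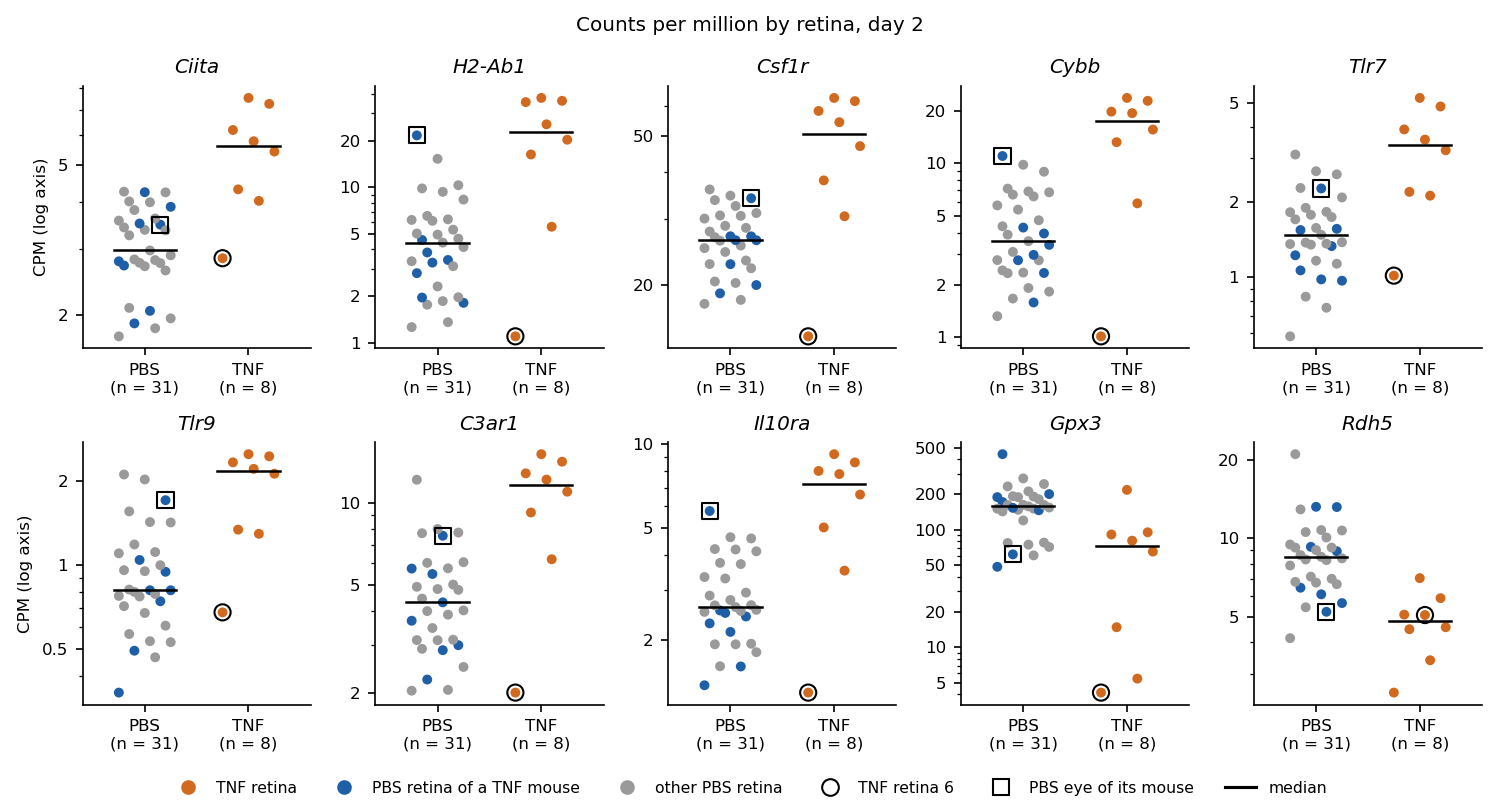
Level of 10 genes (CPM, log axis) in each of the 8 TNF retinas and 31 PBS retinas at day 2, with a bar at each group's median. A circle marks TNF retina 6 and a square the PBS eye of the same mouse. For the MHC class II and macrophage genes 7 TNF retinas lie in or above the upper part of the PBS range, while TNF retina 6 is below all PBS retinas for H2-Ab1, Cybb and Csf1r and inside their range for Ciita.

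Receptors of the myeloid cell surface were among the other higher genes. Cybb (chrX:9435252-9487771), the membrane subunit of the phagocyte NADPH oxidase that produces superoxide, ranged from 1.02 to 23.7 CPM (median 17.5) in the TNF retinas and from 1.33 to 11 CPM (median 3.57) in the PBS retinas. It was above every PBS retina in 6 of 8 TNF retinas and had a log2 fold change of 1.61 ± 0.31 (FDR 0.00355). Csf1r, the receptor for the growth factors CSF1 and IL34 on which microglia and macrophages depend, ranged from 14.6 to 63 CPM (median 50.6) in the TNF retinas and from 17.9 to 36 CPM (median 26.4) in the PBS retinas. In 6 TNF retinas it exceeded all 31 PBS retinas, and it was higher by 0.71 ± 0.14 (FDR 0.00355). Cmklr1 (chr5:113612354-113650426), the receptor for the chemoattractant chemerin, ranged from 1.66 to 5.62 CPM (median 4.52) in the TNF retinas and from 0.801 to 3.36 CPM (median 2.09) in the PBS retinas and was higher by 0.95 ± 0.17 (FDR 0.00224). Il10ra, a chain of the IL10 receptor, ranged from 1.29 to 9.21 CPM (median 7.21) in the TNF retinas and from 1.37 to 5.77 CPM (median 2.61) in the PBS retinas, with 5 TNF retinas above all PBS retinas and a log2 fold change of 1.04 ± 0.20 (FDR 0.00381). Cd48, a surface protein of blood cells that binds CD244, ranged from 0.308 to 3.62 CPM (median 2.56) in the TNF retinas and from 0.340 to 2.20 CPM (median 0.682) in the PBS retinas and changed by 1.27 ± 0.24 (FDR 0.00355). Cd300a, an inhibitory receptor of myeloid cells, was higher by 1.42 ± 0.32 (FDR 0.0119), and 3 TNF retinas exceeded the PBS range. Among intracellular proteins, the small GTPase gene Arl11 was higher by 1.18 ± 0.21 (FDR 0.00224), Tifab, a regulator of TRAF6 signaling, by 0.82 ± 0.15 (FDR 0.00327), Adap2, a GTPase-activating protein of ARF6, by 0.77 ± 0.15 (FDR 0.00355), and Tagap, a GTPase-activating protein first described in T cells, by 0.53 ± 0.11 (FDR 0.00436). For Arl11, Tifab and Adap2, 6 of 8 TNF retinas lay above all PBS retinas, and for Tagap 2 did.

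Of the Fc receptor and ITAM signaling list, whose members carry signals from antibody receptors to the cell interior, 3 of 22 were higher (median 0.70), and 18 were without mouse 6 (median 0.99). Fcgr2b, the inhibitory IgG receptor, ranged from 1.17 to 18.7 CPM (median 12.5) in the TNF retinas and from 1.83 to 10.4 CPM (median 3.89) in the PBS retinas and was higher by 1.10 ± 0.29 (FDR 0.0488). Inpp5d, the phosphatase SHIP1 that acts downstream of it, was higher by 0.60 ± 0.14 (FDR 0.0154), and Laptm5, a lysosomal membrane protein of blood cells, by 0.71 ± 0.17 (FDR 0.0292). The activating receptor Fcgr3 (0.72 ± 0.23, FDR 0.191) and the shared signaling chains Fcer1g (0.76 ± 0.21, FDR 0.0709) and Tyrobp (0.72 ± 0.28, FDR 0.407) did not pass. All 3 passed without mouse 6, at 1.05 ± 0.19 (FDR 0.00016), 1.04 ± 0.18 (FDR 9.37e-05) and 1.12 ± 0.24 (FDR 0.00174).

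Among 18 Toll-like receptors and their partners 3 were higher (median 0.40), and without mouse 6 it was 8, with Tlr1, Tlr8, Tlr13, Ly86 and Cd180 added (median 0.56). Tlr7 (chrX:167304929-167330558), the sensor of single-stranded RNA, ranged from 1.02 to 5.23 CPM (median 3.39) in the TNF retinas and from 0.580 to 3.10 CPM (median 1.48) in the PBS retinas and was higher by 1.02 ± 0.20 (FDR 0.0038). Tlr9, the sensor of unmethylated DNA, was higher by 0.99 ± 0.20 (FDR 0.00436), and Unc93b1, which carries these receptors to endosomes, by 0.89 ± 0.20 (FDR 0.0142). For each of the 3, 5 TNF retinas lay above every PBS retina. Naip5, a cytosolic sensor of flagellin, was higher by 0.97 ± 0.19 (FDR 0.00381). Its partner Nlrc4 ranged from 0.0615 to 0.905 CPM (median 0.637) in the TNF retinas and from 0.0233 to 0.381 CPM (median 0.172) in the PBS retinas, with 6 TNF retinas above all PBS retinas and a log2 fold change of 1.54 ± 0.31 (FDR 0.00593). Casp1, the protease that inflammasomes activate, was higher by 0.82 ± 0.20 (FDR 0.0223). Nlrc4 and Casp1 were 2 of the 18 genes of necroptosis and pyroptosis, and the other 16 did not pass. Naip5 belongs to a cluster of near-identical copies, so that its counts may be shared with other Naip genes.

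The CSF1 receptor axis held 2 higher genes of 10 (median 0.23), Csf1r and Cebpa, a transcription factor of the myeloid lineage, which was higher by 0.76 ± 0.15 (FDR 0.00593). Spi1, which encodes PU.1, ranged from 0.369 to 6.35 CPM (median 3.98) in the TNF retinas and from 0.885 to 4.81 CPM (median 1.86) in the PBS retinas, and its log2 fold change was 0.58 ± 0.31 (FDR 0.688), or 1.06 ± 0.25 (FDR 0.00536) without mouse 6. Of 20 complement genes 2 were higher (median 0.21). C3ar1, the receptor for the fragment C3a, ranged from 2.00 to 15.1 CPM (median 11.6) in the TNF retinas and from 2.03 to 12.2 CPM (median 4.30) in the PBS retinas and was higher by 1.10 ± 0.22 (FDR 0.00436). Itgax, the integrin chain CD11c, ranged from 0.369 to 9.75 CPM (median 5.28) in the TNF retinas and from 0.511 to 4.49 CPM (median 1.52) in the PBS retinas, with 6 TNF retinas above all PBS retinas, and was higher by 1.46 ± 0.33 (FDR 0.0125). The central component C3 ranged from 8.09 to 371 CPM (median 217) in the TNF retinas and from 19.9 to 219 CPM (median 77.9) in the PBS retinas and did not pass (0.71 ± 0.39, FDR 0.711). C1qa, a chain of the first component, was at 0.38 ± 0.15 (FDR 0.443). Both passed without mouse 6, at 1.28 ± 0.34 (FDR 0.0228) and 0.53 ± 0.14 (FDR 0.0233).

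Markers of the cell types that could carry these genes were examined as lists. Of 15 genes of homeostatic microglia 3 were higher, namely Csf1r, Cx3cr1 and Trem2, with a list median of 0.093. Cx3cr1, the receptor for the neuronal chemokine fractalkine, ranged from 8.12 to 22.4 CPM (median 17.7) in the TNF retinas and from 8.53 to 14.9 CPM (median 11.7) in the PBS retinas, with 6 TNF retinas above all PBS retinas and a log2 fold change of 0.50 ± 0.12 (FDR 0.0179). Trem2, a lipid receptor, was higher by 0.94 ± 0.21 (FDR 0.0104). P2ry12 and Tmem119, the markers most specific to microglia, had log2 fold changes of 0.048 ± 0.091 (FDR 0.953) and -0.013 ± 0.13 (FDR 0.992). The list of disease-associated microglia had 3 higher genes of 20, Trem2, Itgax and the lysosomal protein gene Cd68 (0.82 ± 0.20, FDR 0.0292). Of 12 monocyte markers only Fn1, fibronectin, passed (0.65 ± 0.14, FDR 0.0105), with a list median of 0.63. The summed level of the 12 ranged from 292 to 787 CPM in the TNF retinas (median 647) and from 279.8 to 594 CPM in the PBS retinas (median 375), and none was at 0 in all retinas. TNF retina 6 summed to 292 CPM with Ccr2 at 0.0615 CPM and Lyz2 at 2.15 CPM, so that other members made up nearly all of its sum. Ccr2, the receptor that brings monocytes out of the blood and bone marrow, ranged from 0.0615 to 46.3 CPM (median 26) in the TNF retinas and from 0.269 to 16 CPM (median 3.51) in the PBS retinas. It exceeded every PBS retina in 6 of 8 TNF retinas but did not pass (1.89 ± 0.56, FDR 0.125) until mouse 6 was left out (2.98 ± 0.32, FDR 3.83e-09). The same held for Lyz2, lysozyme of myeloid cells, which ranged from 2.15 to 244 CPM (median 149) in the TNF retinas and from 6.54 to 101 CPM (median 32.2) in the PBS retinas, with 1.58 ± 0.44 (FDR 0.0763) in all retinas and 2.41 ± 0.31 (FDR 1.77e-07) without mouse 6. Without mouse 6 Chil3, S100a4 and Ms4a4c also passed, which made 6 monocyte markers, against 3 homeostatic and 7 disease-associated microglial genes. The shares of resident and of incoming cells in these levels were not tested.

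Of the markers of lymphocytes, Cd22, an inhibitory receptor of B cells that microglia also express, was higher by 1.62 ± 0.29 (FDR 0.00224) and ranged from 0.123 to 1.27 CPM (median 0.784) in the TNF retinas and from 0.0467 to 0.633 CPM (median 0.203) in the PBS retinas. It was the only one of 5 tested B cell markers to pass, and the summed level of the list ranged from 2.40 to 5.65 CPM in the TNF retinas (median 4.62) and from 1.72 to 5.17 CPM in the PBS retinas (median 2.90). Ccr7, the receptor that guides dendritic cells to lymph nodes, passed (2.55 ± 0.67, FDR 0.0488), ranging from 0 to 2.66 CPM (median 0.611) in the TNF retinas and from 0 to 0.473 CPM (median 0.0550) in the PBS retinas. Its highest value was that of TNF retina 7, and 5 TNF retinas lay above the PBS range. None of 6 tested T cell markers passed (median 0.45, with 2 at an unadjusted p under 0.05, 1 in edgeR and 1 in DESeq2), Il7r and Cd28 did without mouse 6, and Cd3d, Cd3e, Cd3g and Trac were too low to be tested. None of 12 neutrophil markers passed (median -0.21, with 0 at an unadjusted p under 0.05, 0 in edgeR and 1 in DESeq2), and their summed level ranged from 22.1 to 84.7 CPM in the TNF retinas (median 47.9) and from 19.8 to 181 CPM in the PBS retinas (median 37.5). Within mice the direction differed: with mouse as a fixed factor the median was 0.97 and none passed. Without mouse 6 as well, it was 1.44 and 1 marker was higher. The neutrophil score was higher in the TNF eye of 6 of 8 mice. None of 11 markers of border macrophages passed (median 0.00046, with 4 at an unadjusted p under 0.05, 3 in edgeR and 3 in DESeq2), and F13a1, Ms4a7, Stab1 and Clec10a did without mouse 6 (median 0.15). Mrc1, a mannose receptor on the same list, ranged from 0.0308 to 10.3 CPM (median 3.85) in the TNF retinas and from 1.38 to 10.1 CPM (median 3.52) in the PBS retinas.

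**Figure D3:**
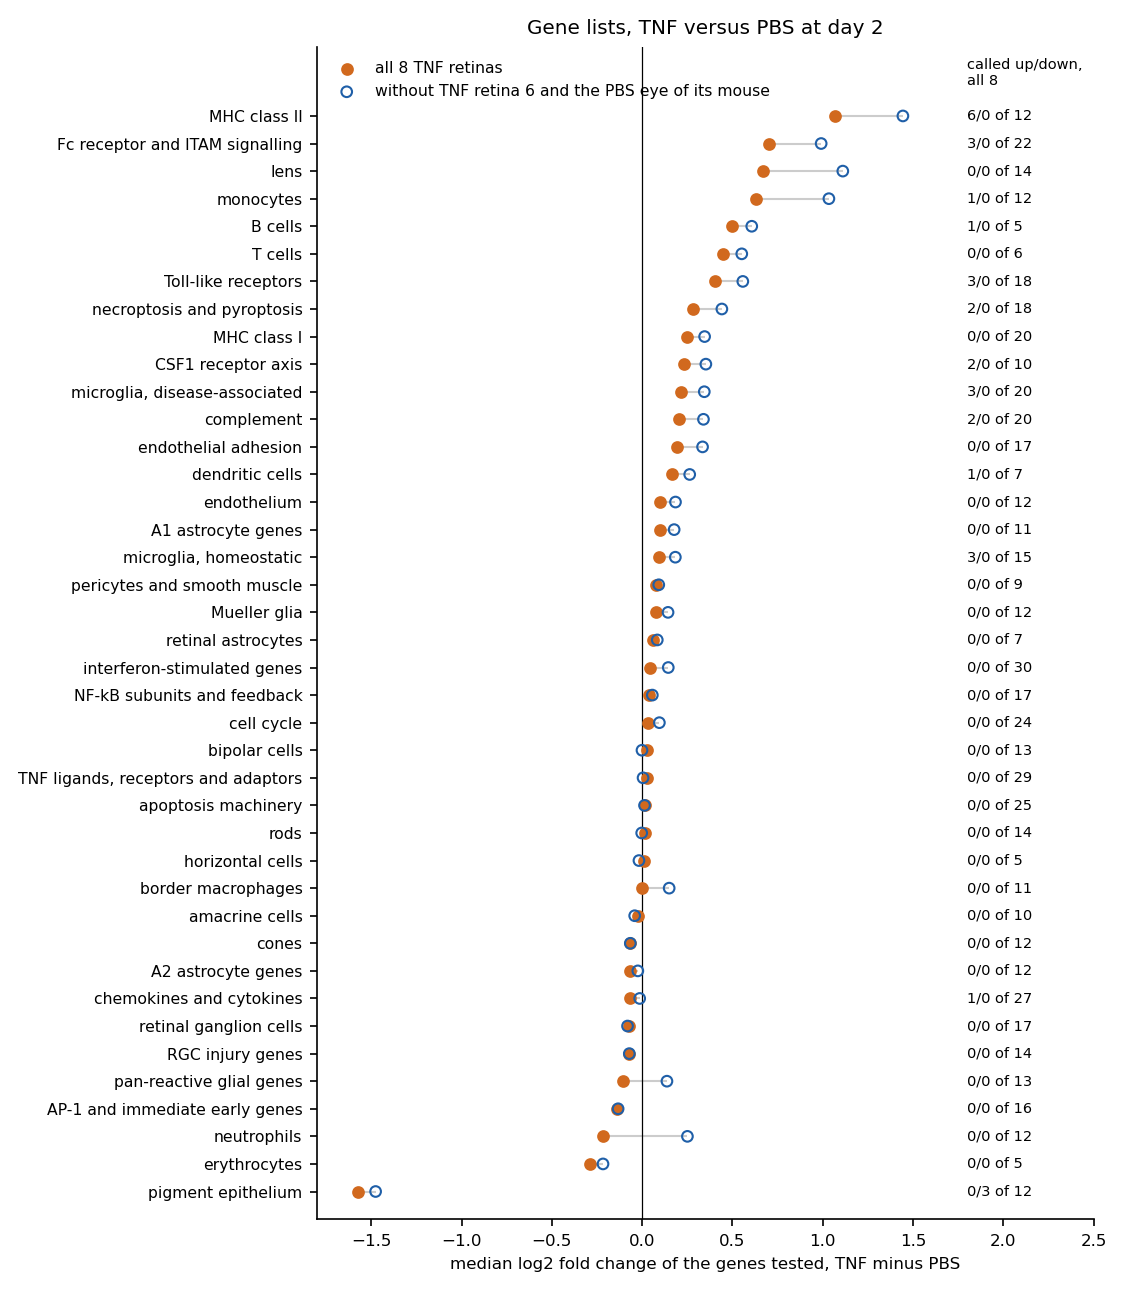
Median log2 fold change (TNF against PBS, day 2, horizontal axis) of the tested members of each gene list (vertical axis), over all 39 retinas and without mouse 6, with the number of members past an FDR of 0.05. MHC class II stands highest among pathways (1.07, and 1.44 without mouse 6) and pigment epithelium lowest of the lists (-1.58).

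The lists closest to TNF signaling itself held no gene past the threshold in limma over all retinas. None of 29 TNF ligands, receptors and adaptors passed in limma (median 0.025, with 3 at an unadjusted p under 0.05, 1 in edgeR and 1 in DESeq2). The receptor gene Tnfrsf1a ranged from 14.1 to 30.9 CPM (median 25.3) in the TNF retinas and from 16.8 to 45.2 CPM (median 25.5) in the PBS retinas, and its log2 fold change was -0.13 ± 0.14 (FDR 0.902). Tnfrsf1b ranged from 2.21 to 16.8 CPM (median 12) in the TNF retinas and from 3.37 to 13.9 CPM (median 7.17) in the PBS retinas, with 0.53 ± 0.22 (FDR 0.453) in all retinas and 0.85 ± 0.18 (FDR 0.00134) without mouse 6. Tnf itself was low in both groups, ranging from 0.0574 to 0.378 CPM (median 0.205) in the TNF retinas and from 0 to 0.413 CPM (median 0.127) in the PBS retinas. Traf1, an adaptor that NF-κB induces, was at 0.97 ± 0.26 (FDR 0.0687), and 1.24 ± 0.25 (FDR 0.000552) without mouse 6.

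Of 17 NF-κB subunits and feedback genes none passed in limma (median 0.035, with 2 at an unadjusted p under 0.05, 0 in edgeR and 0 in DESeq2), and Tnfaip2 did without mouse 6. Nfkbia, the inhibitor IκBα that the pathway makes first, ranged from 17.1 to 25.7 CPM (median 22.7) in the TNF retinas and from 16.8 to 31.6 CPM (median 22.6) in the PBS retinas, and its log2 fold change was -0.039 ± 0.10 (FDR 0.964). That of Tnfaip3, the deubiquitinase A20, was -0.025 ± 0.10 (FDR 0.979). Among 27 tested chemokines and cytokines Ccl5, a chemokine made by T cells and macrophages, was the only one to pass (1.19 ± 0.22, FDR 0.00298). It ranged from 0.172 to 1.59 CPM (median 0.876) in the TNF retinas and from 0.164 to 0.756 CPM (median 0.331) in the PBS retinas, above the PBS range in 5 TNF retinas. Without mouse 6 Ccl5, Ccl9, Cxcl16 and Tgfb1 were higher and Ccl12 was lower. Ccl2, the ligand of CCR2, was at -0.050 ± 0.46 (FDR 0.991), Il1b at 0.12 ± 0.53 (FDR 0.98) and the interferon-induced chemokine Cxcl10 at -1.12 ± 0.52 (FDR 0.6). None of 17 adhesion genes passed (median 0.20, with 6 at an unadjusted p under 0.05, 2 in edgeR and 3 in DESeq2), among them Icam1 (0.33 ± 0.22, FDR 0.809) and Vcam1 (0.19 ± 0.16, FDR 0.854), and 5 did without mouse 6, of which Itgal, Itgam and Itgb2 are leukocyte integrins and Cldn5 and Madcam1 endothelial genes. None of 20 MHC class I genes passed (median 0.25, with 6 at an unadjusted p under 0.05, 0 in edgeR and 1 in DESeq2), and B2m, H2-K1, H2-Q6 and H2-Q7 did without mouse 6. H2-Q6 and H2-Q7 are near-identical copies whose reads the counting could divide. None of 30 interferon-stimulated genes passed with or without mouse 6 (median 0.046 and 0.14, with 1 at an unadjusted p under 0.05, 0 in edgeR and 0 in DESeq2 in all retinas). With mouse as a fixed factor no gene of these lists passed. Without mouse 6 as well, 1 NF-κB gene, 2 chemokines and cytokines, 7 adhesion, 3 MHC class I and 0 interferon-stimulated genes were higher. The list medians were then 0.10, 0.32, 0.45, 0.48 and 0.25. In the same order, list scores were higher in the TNF eye of 7, 5, 7, 6 and 6 of 8 mice.

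All 8 lower genes averaged over 1 CPM. Of 12 pigment epithelium markers 3 were lower, Rgr, Rdh5 and Ttr, with a list median of -1.58. This layer lies behind the retina, regenerates the visual chromophore and stays in part attached when a retina is dissected. Rgr (chr14:37034909-37048964), an opsin of pigment epithelium and Müller glia, ranged from 2.66 to 13.4 CPM (median 8.57) in the TNF retinas and from 4.67 to 92.3 CPM (median 23.7) in the PBS retinas and was lower, with a log2 fold change of -1.63 ± 0.42 (FDR 0.048). Ttr, transthyretin, a carrier of thyroid hormone and retinol, ranged from 4.18 to 16 CPM (median 9.45) in the TNF retinas and from 7.52 to 97.3 CPM (median 27.3) in the PBS retinas and was at -1.61 ± 0.41 (FDR 0.0392). Rdh5, a retinol dehydrogenase of the visual cycle, ranged from 2.55 to 7.04 CPM (median 4.82) in the TNF retinas and from 4.14 to 21.1 CPM (median 8.50) in the PBS retinas and was at -0.87 ± 0.20 (FDR 0.0197). Slc16a8, the lactate transporter MCT3 of the pigment epithelium, ranged from 2.03 to 2.81 CPM (median 2.29) in the TNF retinas and from 2.14 to 10.1 CPM (median 4.00) in the PBS retinas, with a log2 fold change of -0.82 ± 0.18 (FDR 0.0091). All 4 genes were lower in the TNF eye than in the PBS eye in 8 of 8 mice. The transporter gene Slc6a20a was at -1.52 ± 0.38 (FDR 0.0367), also lower in 8 of 8 mice, and the serpin gene Serpine3 at -1.15 ± 0.27 (FDR 0.0181), lower in 7 of 8. Gpx3 (chr11:54902453-54910377), a secreted glutathione peroxidase, ranged from 4.12 to 219 CPM (median 73) in the TNF retinas and from 48.5 to 440.2 CPM (median 158) in the PBS retinas and was at -1.91 ± 0.40 (FDR 0.00822). Ptgds, prostaglandin D2 synthase, ranged from 21.8 to 250.4 CPM (median 82.5) in the TNF retinas and from 57.7 to 435 CPM (median 148) in the PBS retinas and was at -1.19 ± 0.31 (FDR 0.048). Gpx3 and Ptgds were not called by edgeR (FDR 0.12 and 0.226), and both were lower in 7 of 8 mice. With the lens and pigment epithelium scores as covariates, chosen after seeing the data, none of the 8 lower genes passed. Rgr was then at -0.77 (FDR 0.186), Ttr at -0.70 (FDR 0.192), Rdh5 at -0.26 (FDR 0.324) and Gpx3 at -0.66 (FDR 0.325), and Ptgds turned to 0.028 (FDR 0.947). The pigment epithelium score is made of the list's own members, and the median of the 12 was 0.17 in that fit. The summed level of the 12 pigment epithelium markers ranged from 28.9 to 786 CPM in the TNF retinas (median 134) and from 72.1 to 1363 CPM in the PBS retinas (median 408), their score was lower in the TNF eye of every mouse, and no marker was at 0 in all retinas. Rpe65, the isomerase that defines this layer, ranged from 1.32 to 6.14 CPM (median 2.47) in the TNF retinas and from 1.26 to 33.5 CPM (median 6.06) in the PBS retinas and did not pass (-1.31 ± 0.46, FDR 0.289). The amount of attached pigment epithelium per retina and its part in these values were not tested.

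In the lists of neurons, astrocytes and Müller glia, no member passed the threshold over all retinas. No marker of rods (14 tested, median 0.013), cones (12, -0.065), bipolar cells (13, 0.027), amacrine cells (10, -0.021), horizontal cells (5, 0.0089) or RGCs (17, -0.070) passed in the model with mouse as a random block, with or without mouse 6. With mouse as a fixed factor and without mouse 6, 1 RGC marker was lower, Rbpms2 (-0.28 ± 0.060, FDR 0.0459), and 2 cone markers were, the arrestin gene Arr3 (-0.64 ± 0.13, FDR 0.0423) and the opsin gene Opn1sw (-0.23 ± 0.048, FDR 0.0374). With the random block and all retinas 2 of these 71 genes had an unadjusted p under 0.05, and edgeR and DESeq2 called 0. Rbpms, the marker by which RGCs are counted, ranged from 28.6 to 33 CPM (median 31) in the TNF retinas and from 27.7 to 35.5 CPM (median 31) in the PBS retinas. Its log2 fold change was -0.011 ± 0.044 (FDR 0.979). For Pou4f1, the RGC transcription factor BRN3A, it was -0.091 ± 0.062 (FDR 0.809). Gfap, the intermediate filament of astrocytes and reactive Müller glia, ranged from 64.9 to 148 CPM (median 101) in the TNF retinas and from 45.6 to 167 CPM (median 93.4) in the PBS retinas and was at 0.13 ± 0.17 (FDR 0.92). None of the 13 pan-reactive glial genes (median -0.10), 11 A1 genes (0.10) or 12 A2 genes (-0.067) passed in limma (4 of the 36 at an unadjusted p under 0.05, 0 in edgeR and 1 in DESeq2), and without mouse 6 Ggta1 and Cd109 did. Of 25 genes of the apoptosis machinery (median 0.015), 16 immediate early genes (-0.14) and 14 RGC injury genes (-0.070) none passed with or without mouse 6 (2 of the 55 at an unadjusted p under 0.05, and 0 in edgeR and DESeq2). Casp8, the protease that TNFR1 activates, was at 0.27 ± 0.16 (FDR 0.74), and Jun, which neurons induce after axon injury, at -0.12 ± 0.10 (FDR 0.859). Of 14 tested lens genes none passed (median 0.67, with 0 at an unadjusted p under 0.05, 0 in edgeR and 0 in DESeq2), and the summed level of the list ranged from 2.28 to 3184 CPM in the TNF retinas (median 13.9) and from 2.75 to 4655 CPM in the PBS retinas (median 5.04). Its score was higher in the TNF eye in 4 of 8 mice. No marker of erythrocytes (5 tested, median -0.29), endothelium (12, 0.10), pericytes and smooth muscle (9, 0.078), retinal astrocytes (7, 0.062) or Müller glia (12, 0.076) passed in limma, nor did any of 24 cell cycle genes (0.031), with 10 of these 69 at an unadjusted p under 0.05, 0 in edgeR and 1 in DESeq2, and without mouse 6 Cldn5, Tie1 and the Müller glia channel gene Kcnj10 did. With the fixed factor and without mouse 6, Cldn5 and Pecam1 were higher, and Hbb-bs of erythrocytes and Rlbp1 of Müller glia lower.

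Within mice, the TNF eye was set against the PBS eye of the same animal. Of the 120 higher genes, the TNF eye exceeded its own PBS eye for 119, 120, 106, 120, 120, 7, 120 and 118 in mice 1 to 8, so that mouse 6 went against the other 7. In TNF retina 3 only 3 of the 120 genes lay above the whole PBS range and in TNF retina 6 only 1, against 36 to 110 in the other 6. The sizes differed between mice: for H2-Aa the TNF eye was at 48.8 CPM and the PBS eye at 1.89 CPM in mouse 4, at 52.3 and 1.26 CPM in mouse 7, and at 8.61 and 2.73 CPM in mouse 3. Since the genes were chosen on the same retinas, these counts describe them and test nothing, and no such counts over all genes are given. The 8 lower genes lay below the PBS median in every TNF retina except for 2 of them in TNF retina 2.

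**Figure D4:**
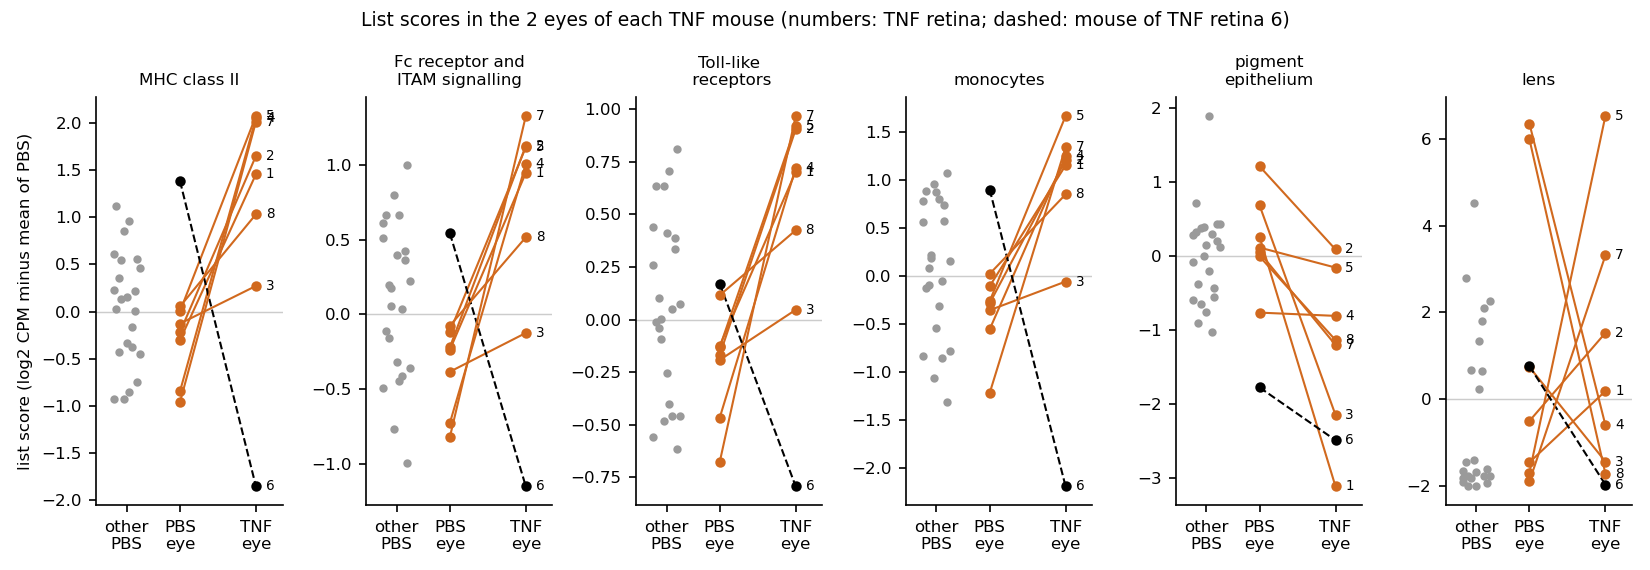
Score of 6 gene lists (mean log2 CPM of the members minus the mean over the PBS retinas, vertical axis) in the PBS eye and the TNF eye of the 8 mice that received both, with a line for each mouse (dashed for mouse 6), and in the 23 PBS retinas of other mice (gray). MHC class II scores are higher in the TNF eye of 7 mice and lower in mouse 6 (-1.86 against 1.38), and pigment epithelium scores are lower in the TNF eye of all 8.

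No difference in the response between the sexes was detectable. The interaction of TNF and sex gave 0 of 19743 genes in limma (536 at an unadjusted p under 0.05) and 0 in edgeR (656), and 0 in limma without mouse 6 (888). The median log2 fold change of the 118 higher genes tested in both sexes was 0.70 in females and 1.09 in males, and mouse 6 was 1 of the 4 females with a TNF eye. PBS eyes of the TNF mice were also compared with the 23 PBS eyes of other mice, of which 15 had a second eye injected with IL1A or IL1A+TNF, so that most of these mice had received a cytokine too. In limma 0 of 18864 genes passed (1047 at an unadjusted p under 0.05), and in edgeR 0 (1121). Ciita differed there by 0.043 ± 0.14 (FDR 0.989) and H2-Aa by -0.52 ± 0.45 (FDR 0.941) on the log2 scale. Some list scores of the PBS eyes of TNF mice were lower than over all 31 PBS retinas. Their medians were -0.64 against -0.22 for neutrophils, -0.33 against -0.023 for pan-reactive glial genes and -0.26 against 0.017 for interferon-stimulated genes. Others were higher, such as RGCs (0.041 against -0.011) and lens (0.12 against -1.45). Differences of these scores were not tested.

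Retinas injected with the other cytokines on the same day show where the TNF response lay. In direct tests 1054 genes were higher (5.39%) and 720 lower (3.68%) after IL1A than after TNF, and 3904 were higher (20%) and 3714 lower (19%) after IL1A+TNF than after TNF. Of the 120 genes higher after TNF, 33 were higher still after IL1A and 1 was lower, with a median difference of 0.46 on the log2 scale. Without mouse 6 these counts were 16 and 2, and the median difference was 0.25. After IL1A+TNF 86 were higher than after TNF and 0 lower in limma (median difference 0.80), or 67 and 1 without mouse 6 (0.52). The gene lower after IL1A than after TNF was Ccl5, by -0.96 ± 0.29 (FDR 0.025). Cd300a was higher after IL1A than after TNF by 1.41 ± 0.32 (FDR 0.00304), Naip5 by 0.74 ± 0.21 (FDR 0.017), Laptm5 by 0.82 ± 0.20 (FDR 0.00492) and Fcgr2b by 1.06 ± 0.31 (FDR 0.0193). Ciita differed by 0.22 ± 0.16 (FDR 0.429) for IL1A and 0.055 ± 0.15 (FDR 0.814) for IL1A+TNF, and H2-Aa by 1.00 ± 0.49 (FDR 0.207) and 0.81 ± 0.48 (FDR 0.184). For the MHC class II list 1 of 12 was higher after IL1A and 3 of 12 after IL1A+TNF. The median difference of the 12 was 0.81 with both. Of 22 Fc receptor and ITAM genes 20 were higher than after TNF with either, with median differences of 1.08 and 1.38, and the difference between the lists was not tested. Among the lower genes, Gpx3 was higher after IL1A than after TNF by 1.84 ± 0.49 (FDR 0.0102) and after IL1A+TNF by 1.44 ± 0.48 (FDR 0.0133). The difference of Tnfrsf1a was 0.75 ± 0.16 (FDR 0.00169) for IL1A and 1.03 ± 0.16 (FDR 4.01e-07) for IL1A+TNF, and that of Nfkbia 0.29 ± 0.12 (FDR 0.104) and 0.38 ± 0.11 (FDR 0.00509). All 30 interferon-stimulated genes were higher after IL1A+TNF than after TNF (median difference 2.02).

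Against the same 31 PBS retinas, which all 3 injections share, the median log2 fold change of the 120 genes was 0.91 after TNF, 1.39 after IL1A and 1.77 after IL1A+TNF. Csf1r was at 1.11 ± 0.13 (FDR 4.48e-10) after IL1A and 1.24 ± 0.12 (FDR 5.87e-13) after IL1A+TNF, beside 0.71 ± 0.14 (FDR 0.00355) after TNF. For Ccl5 the values were 0.23 ± 0.24 (FDR 0.576) and 0.76 ± 0.21 (FDR 0.00198), beside 1.19 ± 0.22 (FDR 0.00298).

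TNF retinas of later days came from other mice with PBS retinas of their own. At day 14 (6 TNF and 7 PBS retinas) none of the 120 genes passed in limma (3 at an unadjusted p under 0.05) and their median log2 fold change was 0.20, and at day 35 (9 and 6 retinas) none passed (2 at an unadjusted p under 0.05) and it was 0.085. Ciita was at 0.26 ± 0.22 (FDR 0.999) on day 14 and 0.11 ± 0.21 (FDR 1) on day 35, H2-Aa at 0.66 ± 1.05 (FDR 0.999) and 0.61 ± 1.72 (FDR 1), and Cybb at 0.91 ± 0.69 (FDR 0.999) and 0.54 ± 1.05 (FDR 1). A direct test of the change in effect since day 2 gave 0 of 20056 genes in limma for day 14 (759 at an unadjusted p under 0.05, and 0 in edgeR). For day 35 it gave 0 as well (511, and 0 in edgeR). Without mouse 6 it gave 4 genes for day 35, all lower than at day 2, namely Csf1r (-1.01 ± 0.21, FDR 0.0439), Cd22 (-3.24 ± 0.64, FDR 0.0439), H2-DMa (-0.91 ± 0.19, FDR 0.0439) and Prcp (-0.62 ± 0.13, FDR 0.0439), a lysosomal protease gene named after its values were seen. Adding all TNF retinas back, the change in Ciita was -0.56 ± 0.25 (FDR 0.999) by day 14 and -0.71 ± 0.24 (FDR 1) by day 35. The 8 lower genes had a median of 0.28 at day 14 and -0.36 at day 35.

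**Figure D5:**
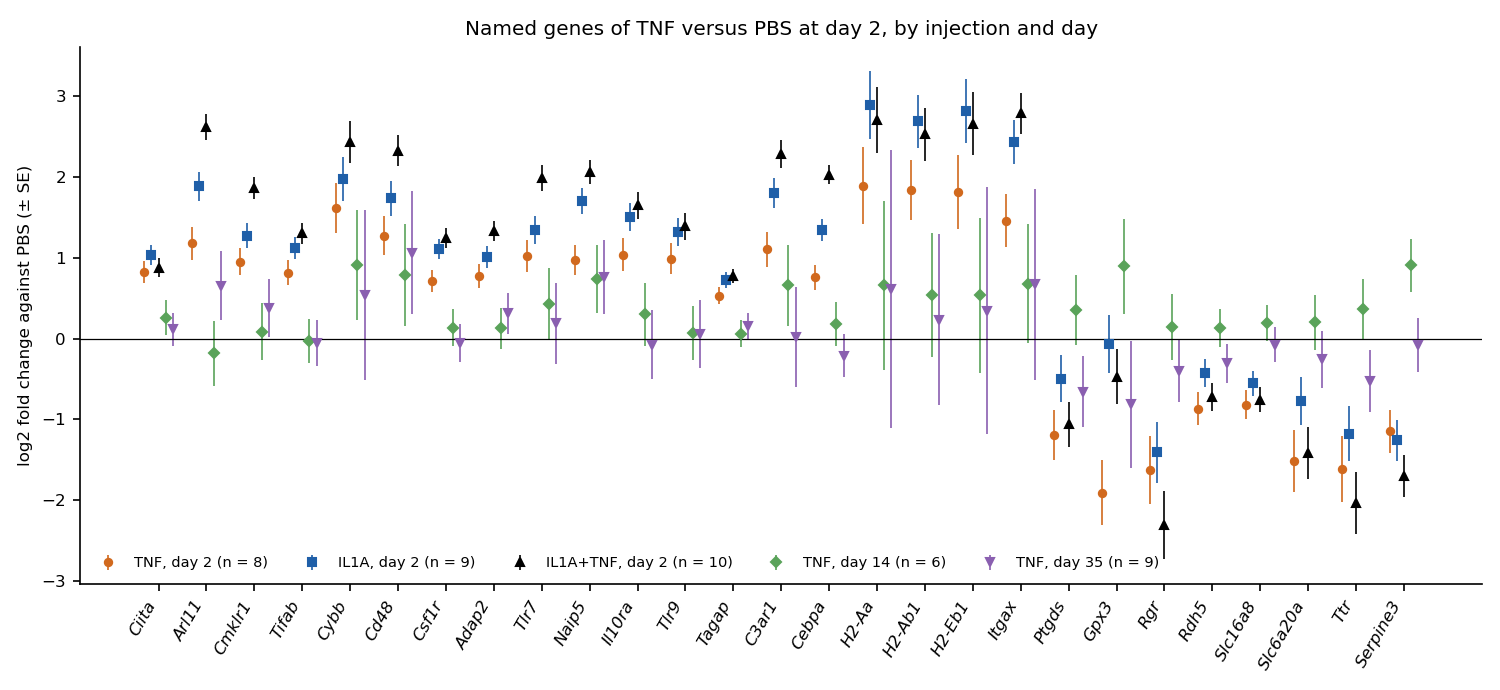
Log2 fold change against PBS (vertical axis) with its standard error for named genes (horizontal axis) after TNF at day 2 (8 retinas), IL1A at day 2 (9), IL1A+TNF at day 2 (10), TNF at day 14 (6) and TNF at day 35 (9). The values of day 2 share the 31 PBS retinas. Ciita is at 0.82 after TNF at day 2, 0.26 at day 14 and 0.11 at day 35.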

How the data were processed

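Whole-retina RNA was sequenced as read pairs. Per the methods, the authors aligned reads to mm10 with STAR 2.7.9a and summed read pairs per gene with featureCounts (Subread 2.0.1), and deposited raw counts for 37315 genes. The annotation release is not given in the sources used here. A symbol was found for 35533. The 39 TNF and PBS retinas held from 30014757 to 43039063 counts each.

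The model of the study was fitted to the 58 WT retinas of batch 1 and day 2. It used limma-voom 3.58.1 in R 4.3.3 with TMM factors and filterByExpr of edgeR 4.0.16 (a count of 10), treatment and sex as factors, and mouse as a random block by duplicateCorrelation (correlation 0.0515). P-values were adjusted by the Benjamini-Hochberg method over all genes tested, and errors are standard errors. Changes in the TNF effect by day 14 and 35 were tested in the same way over all 86 WT retinas of batch 1. Alternatives, given in the closing section, include edgeR's quasi-likelihood test and DESeq2 1.42.0. On simulated counts for 19548 genes, the TNF comparison recovered 97% of 100 genes set to differ by 1 on the log2 scale and 98% of 100 set to differ by 2, with 5 false calls. Simulated counts were independent between retinas, and a changed gene shifted equally in all TNF retinas. Only genes averaging at least 1 CPM were changed, and the eyes of a mouse shared no effect. These shares are therefore not the power in the real retinas.

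Eyes of the same mouse were identified from the labels. Deviations of each TNF retina from its group correlated with those of its own PBS eye at -0.16 to 0.18 over the 8 mice. The gene lists and the comparison were chosen with earlier results of these data known. Named genes are, among those past the threshold with an average of at least 1 CPM, the 15 of smallest FDR, the 10 of largest change and all that were lower, together with list members. Gene positions are from the GRCm38 annotation, and sequences from RefSeq (GRCm38.p6).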

Additional observations from a re-analysis of the deposited data

Results flagged for a closer look

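Among 84 sets of values over the 8 TNF retinas (levels of named genes and list scores), 8 held a retina whose gap to its nearest neighbor exceeded Dixon's critical value of 0.526 of the range. Independent normal values would exceed it in about 1 in 20 sets. The sets here share genes and retinas, and many genes were chosen on the same retinas, so the count of 8 only describes them. TNF retina 6 accounted for 5 of them. It was lowest for Adap2 (1.51 CPM) and for the scores of MHC class II (-1.86), MHC class I (-0.52), monocytes (-2.20) and A1 astrocyte genes (-0.90), in log2 units from the PBS mean. TNF retina 7 was highest for Ccr7 (2.66 CPM), and TNF retina 2 was highest for Gpx3 (219 CPM) and Ptgds (250.4 CPM), both still below the PBS eye of the same mouse (440.2 and 374 CPM).

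The injections differed in direct tests, with 1774 genes between IL1A and TNF and 7618 genes between IL1A+TNF and TNF at an FDR under 0.05 in limma.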

How the results depend on the processing

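The 128 genes that passed between TNF and PBS ranged from 10 to 454 when each TNF mouse was left out in turn, and each mouse but 3 moved the count by over 1.5 times (33, 27, 41, 23, 454, 10 and 67 without mouse 1, 2, 4, 5, 6, 7 and 8, and 146 without mouse 3). It was 242 in edgeR, 268 in DESeq2, 529 with sample quality weights, where TNF retina 6 had a weight of 0.465, and 79 with the 39 TNF and PBS retinas alone. With mouse as a fixed replicate block, which pairs the 2 eyes of each mouse, it was 0, and 0 with the PBS eyes of the TNF mice as the only controls. Fewer retinas entered both fits, and how much of the loss this makes up was not tested. Without the random block it was 107. Without a low-count filter, with 1 CPM in 8 retinas, RLE factors, library totals, no sex term or eye side added it lay between 86 and 167. Of alternatives chosen after seeing the data, lens and pigment epithelium scores as covariates gave 453 genes and turned Ptgds to 0.028 (FDR 0.947), no retina with a lens score over 2 gave 0, the same without mouse 6 gave 132, and the fixed block without mouse 6 gave 308. Without mouse 6, 909 genes differed between IL1A and TNF (1774 with it) and 4 between the effects of day 35 and day 2 (0 with it in limma). Of 43 named genes, 42 kept their direction in the settings above. In edgeR 41 and in DESeq2 42 of the 43 stayed past the threshold, and 42 without mouse 6, 6 without mouse 7 and 0 with the fixed block or without retinas of high lens score. No call changed for sex, fellow eyes or day 14. At this number of mice, 8 with TNF, changes small against the spread between retinas could go undetected.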

Other observations

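Without mouse 6, 29 genes were lower (0.148% of those tested), and 7 of these, 6 enzymes of sterol synthesis and its regulator Insig1, were picked for description after their values were seen. No list of sterol genes was fixed or counted. Dhcr7, the last reductase of the pathway, ranged from 20.5 to 28 CPM (median 24.3) in the TNF retinas and from 24.2 to 32.5 CPM (median 27) in the PBS retinas and was at -0.17 ± 0.045 (FDR 0.0546) with all retinas and -0.21 ± 0.046 (FDR 0.00271) without mouse 6. Idi1, an isomerase of isoprenoid units, ranged from 14.2 to 23.9 CPM (median 17.6) in the TNF retinas and from 14.3 to 28.7 CPM (median 20.7) in the PBS retinas and was at -0.19 ± 0.078 (FDR 0.424) and -0.28 ± 0.072 (FDR 0.015). Without mouse 6 Hmgcs1, the synthase that begins the pathway, was at -0.24 ± 0.063 (FDR 0.0167), Msmo1 at -0.26 ± 0.069 (FDR 0.0206), Sqle, squalene epoxidase, at -0.19 ± 0.055 (FDR 0.0495), Hsd17b7 at -0.21 ± 0.057 (FDR 0.0243) and Insig1, which restrains the pathway when sterols are plentiful, at -0.29 ± 0.082 (FDR 0.0378). None of the 7 passed in limma with all retinas.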
